A study of Homo sapiens with 6 samples.

Results

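Hypoxia response genes were followed in HaCaT cells, an immortalized line of human keratinocytes. The set held 10 genes chosen by symbol: HIF1A and EPAS1, which encode the oxygen-regulated subunits HIF-1α and HIF-2α, the oxygen sensors EGLN1 and EGLN3, the secreted factors VEGFA and ADM, and CA9, NDRG1, BNIP3 and PDK1. All 10 were among the 12499 genes of the deposited count table, and all 10 were among the 12462 genes tested. The cells had been infected for 48 hours with a lentivirus, either one carrying the ATF7 coding sequence (LV-ATF7) or a negative control (LV-NC), and both groups were then cultured in high glucose (HG, 25 mM) for 24 hours. Poly(A) RNA was sequenced from 3 replicates per group, giving 6 libraries with 16686472 to 20562768 counts each. No label or method states that the replicates were separate cultures, so the p-values measure the spread between these libraries, which may be technical. There was no normal-glucose group and no low-oxygen group among the samples, so every comparison was of LV-ATF7 with LV-NC under HG.

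In cells with enough oxygen, HIF-α proteins are hydroxylated by the EGLN prolyl hydroxylases, bound by the VHL ubiquitin ligase and degraded. When oxygen is low, HIF-α is stabilized, pairs with ARNT and activates genes through short DNA sites with the core ACGTG or GCGTG. The activated genes include growth factors of blood vessels, glucose transporters, glycolytic enzymes and the hydroxylases EGLN1 and EGLN3 themselves. VEGFA from keratinocytes is a main signal for new vessels in healing skin. HIF activity is set largely by protein stability, and RNA counts do not measure protein.

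Expression is given as CPM, the share of a library's counts scaled to a fixed total, after TMM scaling, a scaling that corrects for library size and composition. Groups were compared with edgeR's quasi-likelihood test, and every adjusted p is a Benjamini-Hochberg value over the 12462 genes tested. A gene was called when its adjusted p was under 0.05. Log2 fold changes compare LV-ATF7 with LV-NC, and a positive value is higher in the libraries labeled LV-ATF7.

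Some facts of the whole series bear on each direction given here. ATF7 itself was at 46.4 to 52.2 CPM under the label LV-NC and at 21.9 to 27.98 CPM under the label LV-ATF7 (log2 fold change -0.98, standard error 0.12, adjusted p = 1.89e-04 by edgeR), which goes against the labels. Whether the labels are exchanged was not tested, and if they were, every direction given here would turn. Of the ATF7 exon bases, 43.8% lie in exons of other genes as well. LV-NC replicate 1 stood apart: its log2 CPM correlated across genes at r = 0.967 and 0.969 with replicates 2 and 3, which correlated at 0.994 with each other. Of 14 keratinocyte markers, all were in the table, and 9 were called as higher and 1 as lower (71.4%, beside 67.6% of all genes tested). Their summed level was 2580 to 3624 CPM in LV-NC and 8648 to 9307 CPM in LV-ATF7. Without LV-NC replicate 1 all 14 were called, 10 higher and 4 lower, beside 80.1% of all genes. In the fit of all libraries the lower marker was KRT14, a keratin of basal keratinocytes. It was at 0.375, 12.5 and 11.3 CPM in LV-NC and at 1.38 to 1.83 CPM in LV-ATF7. Its partner keratin KRT5, in contrast, was at 99.96, 355.5 and 343.8 CPM in LV-NC and at 3215 to 3622 CPM in LV-ATF7. KRT6A, not called in that fit, was at 1.285, 95.1 and 92.8 CPM in LV-NC and at 19.1 to 19.9 CPM in LV-ATF7. Of 6 endothelial markers, 2 had a row, CDH5 and VWF, and their summed level was 1.12 to 5.50 CPM in LV-NC and 84.6 to 89.9 CPM in LV-ATF7. Most of the LV-ATF7 sum came from CDH5, at 81.05 to 86.2 CPM, with VWF at 2.855 to 3.93 CPM. In bulk RNA, a change in the number of cells of a type and a change in RNA per cell cannot be told apart. The summed levels were 33.1 to 42.7 against 17.3 to 21.7 CPM for 2 of 7 fibroblast markers with a row, 5.57 to 8.12 against 9.38 to 12.7 CPM for 3 of 6 leukocyte markers and 1.87 to 2.20 against 3.42 to 6.03 CPM for 1 of 4 melanocyte markers. Genes within a sum went different ways. Among the fibroblast markers COL1A1 had a log2 fold change of -1.13 and DCN, not called, one of 2.24. Among the leukocyte markers CD14 was at 2.33, CSF1R at -2.18 and ITGAM, not called, at -0.41. The part of these marker differences in the results that follow was not tested.

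The promoter sequences show where the hypoxia genes carry the core of a HIF site near their start. Windows of 250 bases before and 50 bases after the start of each gene were taken from RefSeq (GRCh38.p14), and 8 of the 10 genes had an entry, in 10 windows, whereas VEGFA and NDRG1 had none. ACGTG or GCGTG, on either strand, was found in 7 of the 10 windows and in 7 of the 8 genes, and 48.4% of all 35116 RefSeq windows of that length hold one. Stretches of 30 bases holding these cores are shown 5′ to 3′ on the strand of the gene, with the core in capitals as it reads on that strand (CACGT and CACGC are the cores read from the opposite strand).

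HIF1A: ttggctgagagcgGCGTGggctggggtggg
EPAS1: ggggcctgccggcGCGTGcccgcccacaca
EGLN1: ggggccgtggtgtACGTGcagagcgcgcag
ADM: agagcaggagcgcGCGTGgctgaggaaaga
CA9: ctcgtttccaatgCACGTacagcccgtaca
BNIP3: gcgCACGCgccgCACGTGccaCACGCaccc
PDK1: ctgcccgcCACGTccctCACGTaccactcg

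These stretches lie at chr14:61695296-61695325 (plus strand) for HIF1A, chr2:46297277-46297306 (plus) for EPAS1, chr1:231422284-231422313 (minus) for EGLN1 and chr11:10304959-10304988 (plus) for ADM. The others lie at chr9:35673897-35673926 (plus) for CA9, chr10:131982040-131982069 (minus) for BNIP3 and chr2:172556065-172556094 (plus) for PDK1. BNIP3, whose window held 6 matches, carried CACGTG, in which ACGTG reads on both strands. ACGTG was present in 4 genes, EGLN1, CA9, BNIP3 and PDK1, and in 21.4% of all windows, and GCGTG was in 36.5% of all windows. The cores of CA9, EGLN1 and PDK1 began 18, 13, and 17 and 8 bases before the start, whereas those of EPAS1, ADM and HIF1A began 117, 101 and 204 bases before it. These are RefSeq's starts, and apart from that of HIF1A they lie inside the gene spans given with the genes here. Of the 250 bases before the start, all 250 lay in annotated GENCODE exons for EGLN1 and ADM, 121 for PDK1, 117 for CA9 and 90 for BNIP3, against 7 for EGLN3, 5 for EPAS1 and 0 for HIF1A. A full site for the CREB and ATF family, TGACGTCA, was in no window of these genes and in 1.85% of all windows. The match of letters is a description of these windows and shows no binding.

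EGLN3, which had one of the larger changes of the set, had no core in its window, and its 250 bases before the start (chr14:33951075-33951324, minus strand) are shown for comparison with the 250 bases before the upstream start of HIF1A (chr14:61695263-61695512, plus strand, core in capitals).

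EGLN3: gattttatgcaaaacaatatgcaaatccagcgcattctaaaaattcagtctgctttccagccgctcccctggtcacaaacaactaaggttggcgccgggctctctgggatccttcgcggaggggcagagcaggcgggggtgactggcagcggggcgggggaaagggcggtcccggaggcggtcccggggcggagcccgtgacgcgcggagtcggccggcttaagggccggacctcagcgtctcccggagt
HIF1A: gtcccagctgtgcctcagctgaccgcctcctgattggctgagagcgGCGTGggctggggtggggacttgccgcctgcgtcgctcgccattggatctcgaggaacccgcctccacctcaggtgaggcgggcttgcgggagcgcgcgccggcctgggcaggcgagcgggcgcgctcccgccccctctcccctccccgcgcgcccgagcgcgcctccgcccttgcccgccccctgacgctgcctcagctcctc

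The cytosines and guanines made up 64.0% of the EGLN3 stretch and 75.6% of the HIF1A stretch. Among the printed members, genes with a core both rose (CA9, EPAS1, ADM, HIF1A) and fell (EGLN1, BNIP3) between the groups, and PDK1 was not called.

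Of the 10 hypoxia genes, 8 were called by edgeR's test, 6 as higher and 2 as lower in LV-ATF7. Higher were CA9, EGLN3, VEGFA, EPAS1, HIF1A and ADM, lower were EGLN1 and BNIP3, and NDRG1 and PDK1 did not pass. Over all genes tested 67.6% were called, 34.7% as higher and 32.9% as lower, so a called gene was the common case in these libraries. Under a further criterion of a 1.5-fold change or more, 7 of the 10 were called, 6 higher and 1 lower, beside 52.9% of all genes, 28.2% as higher and 24.6% as lower. The groups had no overlapping libraries for 8 of the 10 genes, the called ones, beside 72.7% of all genes. The median log2 fold change of the 10 genes was 0.74, and that of all genes was 0.00. By size, 6.63% of all genes tested had a larger change in either direction than CA9, 7.52% than EGLN3 and 10.2% than VEGFA. The shares were 21.5% for EPAS1, 25.1% for EGLN1, 41.1% for HIF1A, 50.9% for ADM and 56.4% for BNIP3.

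**Figure D1:**
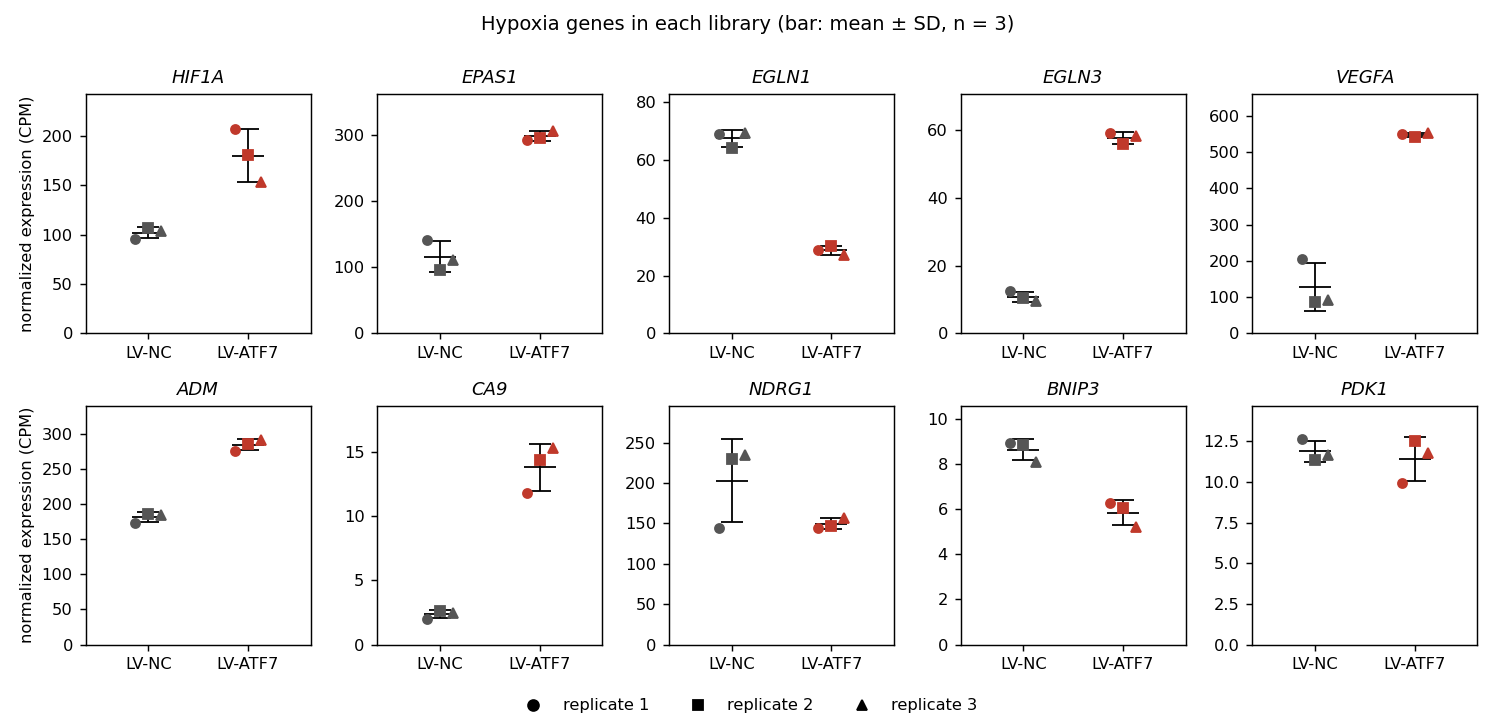
Normalized expression (CPM, linear axes from 0) of the 10 hypoxia genes in the 3 libraries labeled LV-NC (grey) and the 3 labeled LV-ATF7 (red); symbols mark the replicate number and bars the mean ± SD (n = 3). The groups stand apart for 8 genes and overlap for NDRG1 and PDK1, and the circle of LV-NC replicate 1 lies far above the other LV-NC libraries for VEGFA and below them for NDRG1.

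Both HIF-α subunit genes were higher in the libraries labeled LV-ATF7. HIF1A (ENSG00000100644, chr14:61695513-61748259, plus strand), the subunit gene that is active in nearly all tissues, was at 95.7, 106.4 and 103.7 CPM in LV-NC replicates 1, 2 and 3 and at 206.8, 180.9 and 153.0 CPM in LV-ATF7 replicates 1, 2 and 3. Every LV-ATF7 library was above every LV-NC library, and the LV-ATF7 libraries were spread more widely. HIF1A rose from a mean of 101.9 ± 5.58 to one of 180.2 ± 26.9 CPM (SD, n = 3), a log2 fold change of 0.82 (standard error 0.12, 95% interval 0.54 to 1.11, adjusted p = 5.48e-04 by edgeR) or 1.77-fold. Of its exon bases, 5.14% are shared with AL137129.1 and the antisense gene HIF1A-AS1, and whether the counting used strand is not given in the sources used here. EPAS1 (ENSG00000116016, chr2:46293667-46386703, plus strand), best known from endothelial cells and from erythropoietin control, was at 141.5, 96.1 and 110.4 CPM in LV-NC and at 292.5, 295.6 and 307.0 CPM in LV-ATF7. The LV-NC libraries were the more widely spread here, and all of them lay far below the LV-ATF7 libraries. EPAS1 rose from 116.0 ± 23.2 to 298.4 ± 7.61 CPM (SD, n = 3), with a log2 fold change of 1.36 (standard error 0.14, 95% interval 1.03 to 1.69, adjusted p = 8.39e-05 by edgeR) or 2.57-fold. The ratio of EPAS1 to HIF1A, each per kilobase of exon, was 1.04, 0.637 and 0.751 in LV-NC and 0.998, 1.15 and 1.42 in LV-ATF7, and the groups overlapped (exact permutation test on log2 ratios, two-sided, p = 0.20, where 3 libraries against 3 cannot go below 0.10). Which of them was the more abundant in LV-NC rests on the exon length used: with the deposited FPKM, EPAS1 was at 8.79 ± 2.04 and HIF1A at 4.57 ± 0.127 in LV-NC, and at 20.1 ± 0.0715 and 7.23 ± 1.22 in LV-ATF7 (SD, n = 3).

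The oxygen sensors moved in opposite directions. EGLN1 (ENSG00000135766, chr1:231363751-231425044, minus strand) encodes PHD2, the main hydroxylase of HIF-1α in cells with normal oxygen. It was at 69.0, 64.1 and 69.3 CPM in LV-NC and at 28.9, 30.1 and 27.1 CPM in LV-ATF7. The libraries of each group lay close together and the groups far apart, at 67.5 ± 2.92 and 28.7 ± 1.497 CPM (SD, n = 3). EGLN1 had a log2 fold change of -1.23 (standard error 0.09, 95% interval -1.45 to -1.02, adjusted p = 1.69e-05 by edgeR), and LV-NC was 2.35-fold higher. EGLN3 (ENSG00000129521, chr14:33924231-34462774, minus strand) encodes PHD3, which hydroxylates HIF-α too and is itself strongly induced by hypoxia in many cells. It was at 12.4, 10.4 and 9.55 CPM in LV-NC and at 59.2, 55.9 and 58.3 CPM in LV-ATF7. EGLN3 was thus 5.35-fold higher, from 10.8 ± 1.47 to 57.8 ± 1.70 CPM (SD, n = 3), with a log2 fold change of 2.42 (standard error 0.13, 95% interval 2.13 to 2.71, adjusted p = 3.25e-06 by edgeR).

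The hydroxylase genes were also set against each other within each library. Per kilobase of exon, EGLN3 was at 0.178, 0.161 and 0.136 of the EGLN1 level in LV-NC and at 2.03, 1.84 and 2.12 times it in LV-ATF7, so EGLN1 was the more abundant RNA in every LV-NC library and EGLN3 in every LV-ATF7 library. The log2 ratio differed by 3.66 (two-sided p = 0.10 by exact permutation, which no 3 libraries against 3 can go below, and 0.20 after Benjamini-Hochberg adjustment over the 2 ratios tested). Both ratios were chosen after the values of the genes were seen. EGLN2, the third hydroxylase gene, was at 2.83 to 4.69 CPM in LV-NC and at 3.29 to 4.33 CPM in LV-ATF7. Its log2 fold change was -0.00 (95% interval -0.56 to 0.56, adjusted p = 0.999 by edgeR), of either sign among the alternatives, and 30.6% of its exon bases are shared with AC008537.1 and RAB4B-EGLN2.

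Downstream of the hydroxylases, VHL, the substrate receptor of the ligase that marks hydroxylated HIF-α for degradation, was at 62.6, 55.0 and 64.8 CPM in LV-NC and at 98.7, 112.9 and 107.2 CPM in LV-ATF7, or 1.75-fold higher (log2 fold change 0.81, standard error 0.10, adjusted p = 2.37e-04 by edgeR). HIF1AN, the asparagine hydroxylase that limits coactivator binding, was at 250.1, 293.3 and 313.6 CPM in LV-NC and at 162.8, 173.1 and 179.6 CPM in LV-ATF7, with a log2 fold change of -0.73 (standard error 0.11, adjusted p = 5.07e-04 by edgeR). No library of one group overlapped the other for either gene. ARNT, the common partner of both HIF-α subunits, was at 41.2 to 46.8 CPM in LV-NC and at 51.2 to 55.9 CPM in LV-ATF7. ARNT had a log2 fold change of 0.27 (adjusted p = 0.0368 by edgeR) and lost its call in 8 of 13 alternatives, where the adjusted p went up to 0.397.

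VEGFA (ENSG00000112715, chr6:43770184-43786487, plus strand), the growth factor that drives blood vessel formation, was at 204.9, 85.8 and 92.1 CPM in LV-NC and at 549.8, 540.3 and 552.3 CPM in LV-ATF7. All LV-ATF7 libraries lay within a few percent of each other, whereas LV-NC replicate 1 was 2.30 times the mean of replicates 2 and 3. VEGFA rose 4.29-fold, from 127.6 ± 67.0 to 547.5 ± 6.36 CPM (SD, n = 3), with a log2 fold change of 2.10 (standard error 0.32, 95% interval 1.37 to 2.83, adjusted p = 5.79e-04 by edgeR). This standard error was the largest of the 10 genes. Without LV-NC replicate 1 the rise was 6.07-fold (log2 fold change 2.60, standard error 0.07, adjusted p = 3.22e-20 by edgeR), the largest among 13 alternatives. Without LV-NC replicate 2 or 3 instead, the log2 fold change was 1.84 or 1.87 (adjusted p = 0.00191 and 0.00273 by edgeR). Over all 13 alternatives it ranged from 1.84 to 2.60. The gene shares 1.30% of its exon bases with AL136131.3 on the opposite strand. Counts per gene do not separate the splice isoforms of VEGFA.

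The other VEGF ligands did not follow a single direction. VEGFB, a ligand of VEGFR1 with roles in lipid uptake and vessel survival, was at 5.46, 5.66 and 6.89 CPM in LV-NC and at 62.9, 66.4 and 76.3 CPM in LV-ATF7, a log2 fold change of 3.51 (standard error 0.14, adjusted p = 1.34e-06 by edgeR). PGF, placental growth factor, went the other way, from 7.98, 16.2 and 14.3 CPM in LV-NC to 0.726, 0.408 and 0.940 CPM in LV-ATF7, a log2 fold change of -4.21 (standard error 0.38, adjusted p = 3.94e-05 by edgeR). Both log2 fold changes were larger in size than that of VEGFA, and the difference between the genes was not tested. PGF had 149, 310 and 247 counts in LV-NC but only 13, 8 and 17 in LV-ATF7. It passed the filter through LV-NC, and a filter of 10 counts in each library left it out. VEGFC, a growth factor of lymphatic vessels, was at 5.73, 3.36 and 3.01 CPM and at 6.81, 6.78 and 7.74 CPM, with a log2 fold change of 0.82 (adjusted p = 0.0215 by edgeR) that lost its call in 6 of 13 alternatives (adjusted p up to 0.0866). Per kilobase of exon, VEGFA was at 8.84 ± 4.64 and VEGFB at 3.89 ± 0.5002 CPM in LV-NC, and they were at 37.9 ± 0.441 and 44.4 ± 4.51 CPM in LV-ATF7 (SD, n = 3). These levels rest on the exon lengths used, 14.431 kilobases for VEGFA and 1.545 for VEGFB. The order of these genes under other lengths was not tested. Of the ligands and receptors listed, 6 of 10 had a row, of which 5 were called, 3 higher and 2 lower (83.3%, beside 67.6% of all genes), and VEGFD, FLT1, KDR and FLT4 had no row. The lower genes were PGF and NRP2, a neuropilin coreceptor at 25.3 to 32.9 CPM in LV-NC and 17.6 to 18.9 CPM in LV-ATF7 (log2 fold change -0.66, adjusted p = 0.0024 by edgeR), while NRP1 was not called (log2 fold change -0.07, adjusted p = 0.858).

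**Figure D2:**
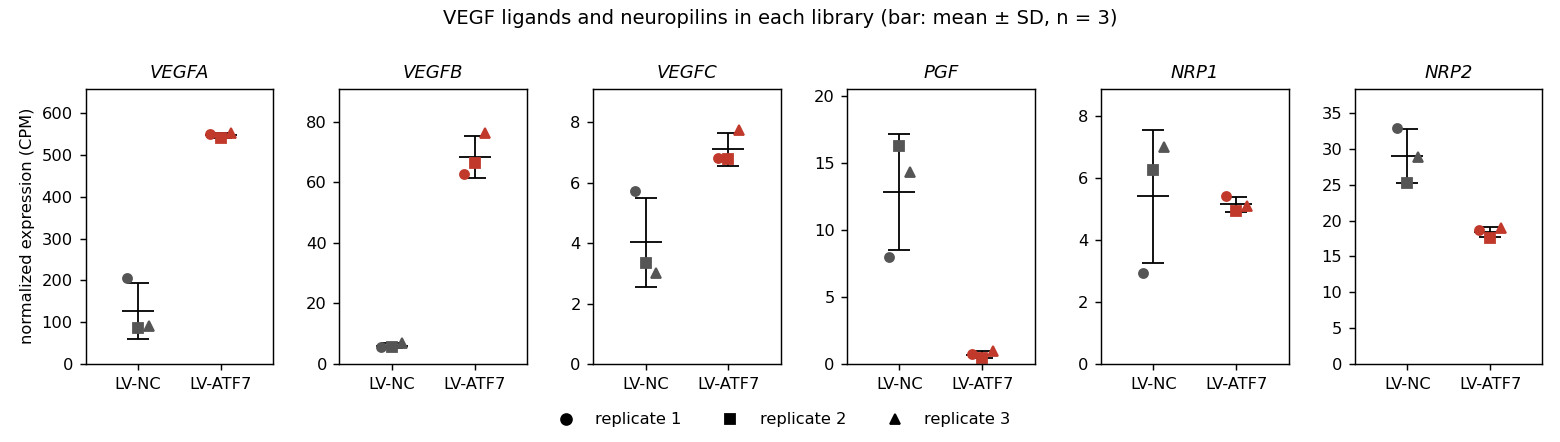
Normalized expression (CPM, linear axes from 0, one scale per gene) of the 4 VEGF ligand genes and the 2 neuropilin genes with a row, in the 3 libraries labeled LV-NC (grey) and the 3 labeled LV-ATF7 (red), with bars for the mean ± SD (n = 3). VEGFA and VEGFB are higher in every LV-ATF7 library, PGF is under 1 CPM in all 3, and LV-NC replicate 1 (circle) differs from replicates 2 and 3 for VEGFA, VEGFC, PGF and NRP1.

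ADM (ENSG00000148926, chr11:10304680-10307397, plus strand) encodes adrenomedullin, a secreted peptide that widens vessels and acts on endothelial barriers. It was at 173.5, 186.7 and 184.4 CPM in LV-NC and at 276.7, 286.8 and 292.5 CPM in LV-ATF7. The libraries of each group were close and the groups did not overlap, with means of 181.5 ± 7.02 and 285.3 ± 8.02 CPM (SD, n = 3). ADM rose 1.57-fold (log2 fold change 0.65, standard error 0.08, 95% interval 0.46 to 0.84, adjusted p = 2.33e-04 by edgeR), the smallest of the 6 rises. ADM2, which encodes the related peptide intermedin, was at 0.696, 0.157 and 0.405 CPM in LV-NC (13, 3 and 7 counts) and at 4.30, 5.20 and 4.09 CPM in LV-ATF7, with a log2 fold change of 3.42 (standard error 0.39, adjusted p = 1.34e-04 by edgeR).

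CA9 (ENSG00000107159, chr9:35673856-35681159, plus strand) encodes carbonic anhydrase IX, a membrane enzyme of pH control that is widely used as a marker of hypoxic tumor cells. It had 37, 49 and 43 counts in LV-NC and 211, 281 and 277 counts in LV-ATF7, or 1.98, 2.57 and 2.49 CPM and 11.8, 14.3 and 15.3 CPM. The lowest LV-ATF7 library was well above the highest LV-NC library, although the gene was low in both groups. CA9 rose 5.87-fold, from 2.35 ± 0.319 to 13.8 ± 1.83 CPM (SD, n = 3), with the largest log2 fold change of the 10 genes at 2.55 (standard error 0.19, 95% interval 2.12 to 2.98, adjusted p = 1.40e-05 by edgeR). Without LV-NC replicate 1 the order turned, with VEGFA at 2.60, EGLN3 at 2.51 and CA9 at 2.42. Of its exon bases, 38.5% overlap ARHGEF39 on the opposite strand, and without strand, reads of the 2 genes in the overlap cannot be told apart. ARHGEF39 was at 3.48, 7.65 and 9.09 CPM in LV-NC and at 5.75, 6.07 and 7.19 CPM in LV-ATF7, with a log2 fold change of -0.09 (adjusted p = 0.823 by edgeR). CA2, a cytosolic carbonic anhydrase, was at 15.8 to 19.1 CPM in LV-NC and at 131.6 to 142.1 CPM in LV-ATF7 (log2 fold change 2.98, standard error 0.11, adjusted p = 1.03e-06 by edgeR).

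NDRG1 (ENSG00000104419, minus strand of chromosome 8, 133237171 to 133302022), a stress and differentiation gene that rises in hypoxia in many cell types, was at 144.4, 230.2 and 235.1 CPM in LV-NC and at 144.6, 147.1 and 157.3 CPM in LV-ATF7. LV-NC replicate 1 lay at the level of the LV-ATF7 libraries and the other LV-NC libraries lay above all of them. Group means were 203.2 ± 51.0 and 149.7 ± 6.75 CPM (SD, n = 3). A log2 fold change of -0.44 (standard error 0.18, 95% interval -0.85 to -0.03) did not pass the threshold over all genes (adjusted p = 0.0563 by edgeR). Without LV-NC replicate 1 it was called, at -0.66 (standard error 0.07, adjusted p = 3.11e-09 by edgeR), or 1.58-fold higher in LV-NC. Its paralogs gave other patterns: NDRG2 was at 1.26 to 2.46 CPM in LV-NC and at 30.5 to 33.95 CPM in LV-ATF7 (log2 fold change 4.28, standard error 0.25, adjusted p = 5.73e-06). NDRG3 had a log2 fold change of 0.54 (adjusted p = 0.00473) and NDRG4 one of -0.55 (adjusted p = 0.00644), both under 1.5-fold, by edgeR.

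BNIP3 (ENSG00000176171, chr10:131966455-131982013, minus strand), a mitochondrial protein of mitophagy and cell death, was at 8.94, 8.86 and 8.10 CPM in LV-NC and at 6.25, 6.07 and 5.20 CPM in LV-ATF7. The groups did not overlap, at 8.63 ± 0.461 and 5.84 ± 0.562 CPM (SD, n = 3). BNIP3 had a log2 fold change of -0.56 (standard error 0.15, 95% interval -0.91 to -0.21, adjusted p = 0.0108 by edgeR), which is 1.48-fold and so under the fold criterion. Its paralog BNIP3L, another mitophagy receptor, was lower as well, at 85.8, 101.3 and 98.4 CPM in LV-NC and at 48.8, 48.2 and 43.0 CPM in LV-ATF7 (log2 fold change -1.03, standard error 0.11, adjusted p = 7.59e-05 by edgeR). Of the BNIP3L exon bases, 8.96% overlap PNMA2 and SDAD1P1 on the opposite strand.

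PDK1 (ENSG00000152256, chr2:172555373-172608669, plus strand), a kinase that switches off pyruvate dehydrogenase and so keeps pyruvate out of mitochondria, was at 12.6, 11.4 and 11.6 CPM in LV-NC and at 9.94, 12.5 and 11.8 CPM in LV-ATF7. The groups overlapped at 11.9 ± 0.665 and 11.4 ± 1.34 CPM (SD, n = 3). The log2 fold change of PDK1 was -0.06 (standard error 0.14, 95% interval -0.39 to 0.27, adjusted p = 0.740 by edgeR), and its sign turned in some alternatives. Among the other pyruvate dehydrogenase kinases, PDK2 was at 3.86, 5.61 and 5.21 CPM in LV-NC and at 11.2, 16.2 and 17.1 CPM in LV-ATF7 (log2 fold change 1.60, standard error 0.22, adjusted p = 3.70e-04 by edgeR), with 38.5% of its exon bases overlapping SAMD14 on the opposite strand. PDK3 was at 23.3 to 24.9 CPM and at 27.6 to 31.9 CPM (log2 fold change 0.30, adjusted p = 0.0372 by edgeR), and it lost its call in 8 of 13 alternatives (adjusted p up to 0.301). Over the 12 paralogs of the hypoxia genes with a row, of 15 listed, 11 were called, 8 higher and 3 lower (91.7%, beside 67.6% of all genes, 34.7% as higher and 32.9% as lower). The called paralogs include PGF and ADM2, which passed the filter only through the group where they were high.

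**Figure D3:**
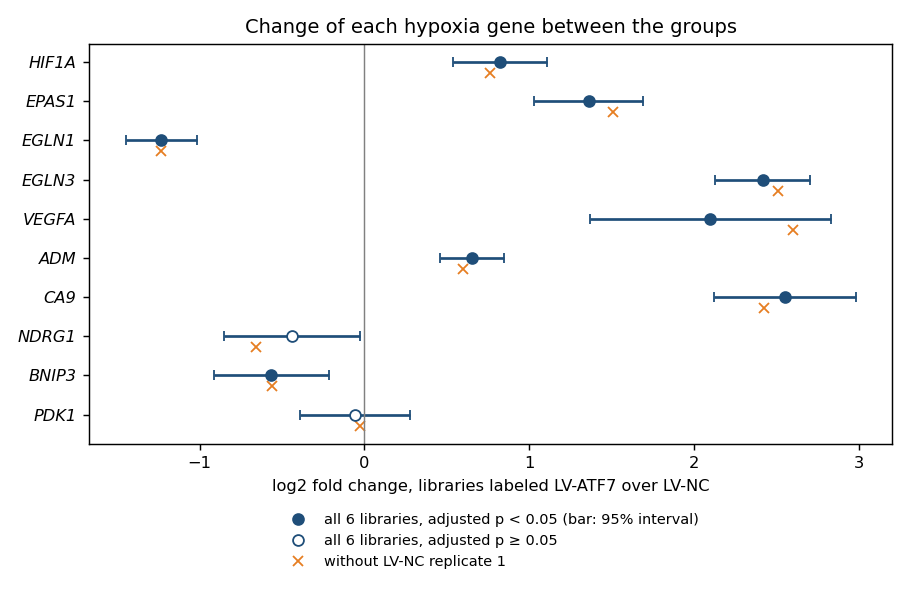
Log2 fold change between LV-NC and LV-ATF7 (positive: higher in LV-ATF7) for each hypoxia gene (points, filled where the adjusted p was under 0.05) with its 95% interval, and the value without LV-NC replicate 1 (crosses). CA9, EGLN3 and VEGFA lie above 2, EGLN1 lies at -1.23, and the cross of VEGFA at 2.60 and that of NDRG1 at -0.66 are the farthest from their points.

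LV-NC replicate 1 moved individual hypoxia genes by different amounts. It was at least 1.5-fold away from the mean of LV-NC replicates 2 and 3 for 2 of the 10 genes, VEGFA at 2.30 times and NDRG1 at 0.621 times, and 20.5% of all genes tested were that far away. For EPAS1 the ratio was 1.37, for EGLN3 1.24 and for CA9 0.783, and for the other 5 genes it lay between 0.911 (HIF1A) and 1.10 (PDK1). It lay toward LV-ATF7 for 4 of the 10 genes and for 56.9% of all genes. Without this library 9 of the 10 genes were called by edgeR, 6 higher and 3 lower, beside 80.1% of all genes, and 8 also passed the fold criterion, beside 56.5%. The fold changes of the 6 genes that were higher remained at 1.52-fold (ADM) to 6.07-fold (VEGFA) without it.

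Compared per kilobase of exon, the levels of the genes spanned a wide range. In LV-NC, ADM was the highest at 66.8 ± 2.58 CPM per kilobase (SD, n = 3). NDRG1 at 20.7 ± 5.19, HIF1A at 19.8 ± 1.08 and EPAS1 at 15.9 ± 3.18 followed, and neighbors in this order overlapped between libraries. EGLN1 at 9.29 ± 0.402 and VEGFA at 8.84 ± 4.64 came next and overlapped too. The low group was BNIP3 at 1.62 ± 0.0867, EGLN3 at 1.47 ± 0.200 and CA9 at 1.41 ± 0.191, whose neighbors overlapped, and PDK1 was the lowest at 0.798 ± 0.0447. In LV-ATF7, ADM was again the highest at 105.0 ± 2.95 CPM per kilobase and PDK1 the lowest at 0.767 ± 0.0900 (SD, n = 3). EPAS1 at 40.9 ± 1.04 and VEGFA at 37.9 ± 0.441 did not overlap, whereas VEGFA overlapped HIF1A at 35.0 ± 5.22. NDRG1 at 15.2 ± 0.687 was followed by CA9 at 8.27 ± 1.09 and EGLN3 at 7.86 ± 0.231, which overlapped. EGLN1 at 3.95 ± 0.206 and BNIP3 at 1.10 ± 0.106 stood apart from their neighbors. VEGFA was thus the sixth of the 10 genes in LV-NC and the third in LV-ATF7, and EGLN1 was the fifth and the eighth. With the deposited FPKM in place of these levels VEGFA and the 2 genes at the ends kept their places in both groups, and EGLN1 was the third in LV-NC and the eighth in LV-ATF7. Other places turned: EPAS1 was then the second, NDRG1 the fourth and HIF1A the fifth in LV-NC, and in LV-ATF7 NDRG1 was the seventh, below CA9 and EGLN3.

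**Figure D4:**
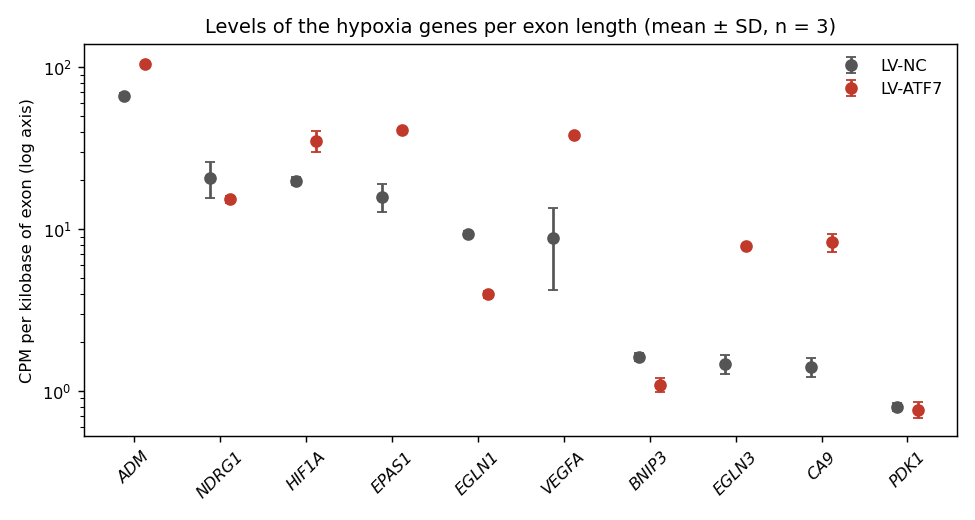
Level per exon length (CPM per kilobase, log axis) of the 10 hypoxia genes, ordered by their mean in LV-NC; points are means of 3 libraries labeled LV-NC (grey) or LV-ATF7 (red) and bars the SD. ADM is the highest in both groups at 66.8 and 105.0, PDK1 the lowest, and VEGFA, EGLN3 and CA9 show the widest gaps between the groups.

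Beyond the 10 genes, 19 of 20 listed genes of the HIF machinery (subunits, hydroxylases, the VHL ligase, coactivators and regulators of stability) had a row, all but HIF3A. Of these, 12 were called (63.2%, beside 67.6% of all genes), 3 higher and 9 lower, and 7 were not, with a median log2 fold change of -0.09 beside 0.00 for all genes. The 3 largest changes were those of CITED4, HSP90AA1 and CITED2. CITED4, a CREBBP/EP300-binding protein that can block HIF-1α, was at 24.0, 16.5 and 15.2 CPM in LV-NC and at 75.7, 85.3 and 100.5 CPM in LV-ATF7 (log2 fold change 2.23, standard error 0.19, adjusted p = 3.24e-05 by edgeR). Its relative CITED2, a HIF-induced inhibitor that competes for the same coactivators, was at 123.4, 124.4 and 130.9 CPM in LV-NC and at 47.7, 49.8 and 53.1 CPM in LV-ATF7 (log2 fold change -1.33, standard error 0.09, adjusted p = 9.59e-06 by edgeR). These genes of related function thus lay on opposite sides, with no overlap between groups for either. HSP90AA1, a chaperone that stabilizes HIF-1α, was at 1012, 2029 and 1857 CPM in LV-NC and at 658.1, 621.4 and 551.9 CPM in LV-ATF7 (log2 fold change -1.42, standard error 0.24, adjusted p = 0.00115 by edgeR), and LV-NC replicate 1 lay between the others and LV-ATF7.

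Other genes known as HIF targets were called in both directions. Of 64 listed, 58 had a row, and 38 of them were called (65.5%, beside 67.6% of all genes), 19 higher and 19 lower, with a median log2 fold change of -0.02. The split was 20 higher and 26 lower without LV-NC replicate 1, or 43.5% of calls higher, beside 49.8% of calls over all genes. With library size only in place of TMM it was 15 higher and 21 lower, or 41.7% higher, beside 42.4% over all genes. Not in the table were CA12, CXCR4, LOX, MIF, NRN1 and PPP1R3C. Of the 22 targets of glucose uptake and glycolysis, a smaller share was called than the 67.6% of all genes. These targets had 11 called, 6 higher and 5 lower. Largest among them were PFKL, a phosphofructokinase subunit, at 45.7 to 65.3 CPM in LV-NC and 181.6 to 221.9 CPM in LV-ATF7 (log2 fold change 1.77, adjusted p = 3.42e-05 by edgeR), and SLC2A1, the glucose transporter GLUT1, at 123.6, 217.8 and 219.4 CPM in LV-NC and 72.9 to 86.7 CPM in LV-ATF7 (log2 fold change -1.22, adjusted p = 0.00126). PFKFB3, which makes the activator of phosphofructokinase, had a log2 fold change of -1.06 (standard error 0.16, adjusted p = 5.11e-04 by edgeR). Without LV-NC replicate 1, 18 of these 22 genes were called, 7 higher and 11 lower, beside 80.1% of all genes, so this count moved by over 1.5 times with that library.

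The remaining 36 targets had 27 called, 13 higher and 14 lower (75.0%, beside 67.6% of all genes, 34.7% as higher and 32.9% as lower). IGFBP3, a carrier of insulin-like growth factors, was at 385.6, 347.7 and 342.2 CPM in LV-NC and at 2531, 2665 and 2802 CPM in LV-ATF7, a log2 fold change of 2.89 (standard error 0.11, adjusted p = 1.27e-06 by edgeR). HMOX1, heme oxygenase 1, was at 3.69, 8.44 and 8.05 CPM in LV-NC and at 0.837, 0.510 and 1.22 CPM in LV-ATF7 (log2 fold change -2.98, standard error 0.42, adjusted p = 4.07e-04 by edgeR). HMOX1 was thus lower in every library in which VEGFA, CA9 and EGLN3 were higher.

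**Figure D5:**
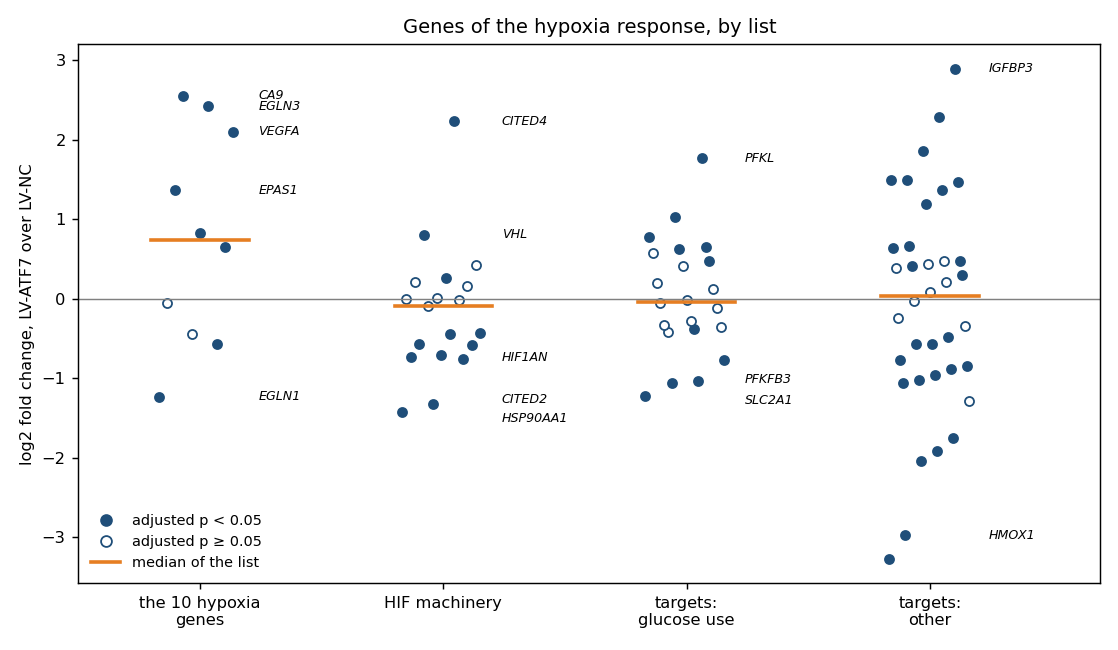
Log2 fold change between LV-NC and LV-ATF7 (vertical axis, positive: higher in LV-ATF7) for the tested genes of 4 lists: the 10 hypoxia genes, the HIF machinery (19 genes), HIF targets of glucose use (22) and other HIF targets (36); filled points had an adjusted p under 0.05, orange lines are list medians, and horizontal spread within a list has no meaning. The median of the 10 hypoxia genes lies at 0.74 and those of the other lists near 0, with called genes on both sides in each.

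The genes most like VEGFA across the 6 libraries were sought by Pearson's r of log2 CPM. For this, 9475 genes averaging 10 CPM or more were compared. RPS27, a ribosomal protein gene (r = 0.9997), LAMB2, the laminin β2 chain (r = 0.9996), and SEL1L3 (r = 0.9994) were the closest. LAMB2 was at 207.5, 75.2 and 77.7 CPM in LV-NC and at 690.2 to 747.8 CPM in LV-ATF7, and it shared with VEGFA a higher LV-NC replicate 1. RPS27 was at 298.5, 175.0 and 181.1 CPM in LV-NC and at 580.8 to 588.3 CPM in LV-ATF7, and reads of near-identical ribosomal protein copies could have been split by the counting. These correlations rest on 6 points that share the division into groups and the outlying library, and 1418 of the genes compared had r above 0.95.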

How the data were processed

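RNA-seq libraries from 6 samples, 3 per group, were analyzed, and samples were grouped by their deposited labels. The authors sequenced poly(A) mRNA on an Illumina NovaSeq system, filtered the reads for quality and deposited unnormalized read counts for each gene. The submitters' processing notes name GRCh38, and the aligner, counter, annotation and strandedness are not given in the sources used here. The deposited FPKM values were used only to rank levels in another way. The authors' deposited fold (ratio), log2 fold change and p-value columns hold their own comparison and were not used.

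TMM-scaled counts were compared with edgeR 4.0.16 in R 4.3.3 (filterByExpr, glmQLFit, glmQLFTest, no covariates), with Benjamini-Hochberg adjustment over 12462 genes. Low counts removed 37 genes before the test. The lowest sum of counts of any gene in the table was 51, so rarer genes were not analyzed here. Positions, exon lengths (exons counted once) and exon overlaps come from GENCODE release 29 (GRCh38), in which 12485 of the 12499 identifiers were found, and 33 genes with a blank symbol were kept under their identifiers. Replicates differed by more than sampling noise (chi-square per gene 2.86 to 76.4). Libraries with the same replicate number in their titles did not deviate together (correlations 0.06, -0.02 and 0.06), so replicate numbers were not used as pairs. The library name of LV-NC replicate 3 carries a number other than its replicate number.

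The hypoxia genes, the other lists and the markers were chosen with earlier results of these data known, so their counts are descriptions. Genes named outside the set were the paralogs with a row, the 3 largest called changes of each list among genes averaging 50 counts or more whose groups did not overlap, VHL, ARNT and HIF1AN, and the 3 genes most like VEGFA (log2 CPM with a prior count of 2). EGLN3 to EGLN1 and EPAS1 to HIF1A ratios, ARHGEF39, NRP1, NRP2, and the markers named were added after values were seen. One gene that this rule names is not reported here. On simulated counts of LV-ATF7 against LV-NC for 12462 genes, 144 of 199 changed genes were recovered, and 9.43% of the 159 calls fell on genes left unchanged. That share is above the 0.05 that the threshold aims at. The simulation was a single draw in which no library was set apart as LV-NC replicate 1 was. It also changed a far smaller share of genes than the 67.6% called in the data, so its rates need not hold there. Alternatives changed the scaling (library size only, upper quartile), the tool (DESeq2 1.42.0, limma 3.58.1 voom with sample quality weights), the filter (none, or 10 counts in each library), added the replicate number as a block, or left out 1 library. Python 3.11.15 was used for summaries. The proteomics, qPCR, blots and mouse experiments were not analyzed here.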

Additional observations from a re-analysis of the deposited data

How the results depend on the processing

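Over the 13 alternatives, 8 or 9 hypoxia genes were called and 7 or 8 with the fold criterion, 9 to 15 HIF machinery genes, 33 to 48 HIF targets and 7290 to 10391 of all genes. Which genes passed the fold criterion differed. With library size only ADM, at a log2 fold change of 0.49, did not reach it, whereas BNIP3 (-0.73) and NDRG1 (-0.60) did. BNIP3 also reached it without LV-NC replicate 3 (-0.65) and without LV-ATF7 replicate 1 (-0.61), among others. HIF1A, EPAS1, VEGFA, ADM, CA9, EGLN1, EGLN3 and BNIP3 had the same call and direction in all 13. NDRG1 was called in 6 of them: DESeq2 (adjusted p = 0.0252), library size only (0.0114), limma voom with quality weights (6.12e-09), the filter of 10 counts in each library (0.0443), the replicate block (0.0442) and the fit without LV-NC replicate 1 (3.11e-09). In the others its adjusted p was 0.0553 to 0.149. With the replicate number as a block in edgeR, 9 hypoxia genes were called, 7 with the fold criterion, as were 10 HIF machinery genes, 36 HIF targets and 8210 of all genes. PDK1 was not called in any alternative, but its log2 fold change turned to 0.0306 with limma voom, and it ranged from -0.129 to 0.0348 when single libraries were left out. EGLN2, likewise not called, was at 0.0134 with upper quartile scaling, 0.0008 with no filter, 0.1125 with limma voom and 0.0147 with the replicate block, and it ranged from -0.222 to 0.109 when single libraries were left out. The cause of these turns was not tested. Library size alone in place of TMM shifted the median over all genes by -0.16 on the log2 scale, and the 6 rises and 2 falls of the called hypoxia genes kept their direction. With at most 49 counts per LV-NC library, CA9 is limited by depth more than the other genes.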

Other observations

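Genes that receive the adrenomedullin signal were called in both directions. ACKR3, a decoy receptor that takes up adrenomedullin and CXCL12, was at 8.03, 3.04 and 2.37 CPM in LV-NC and at 48.7, 49.7 and 51.1 CPM in LV-ATF7 (log2 fold change 3.47, standard error 0.39, adjusted p = 1.27e-04 by edgeR), and without LV-NC replicate 1 the log2 fold change was 4.17. CALCRL, the receptor that needs a RAMP protein to bind the peptide, was at 8.46, 5.61 and 4.40 CPM in LV-NC and at 2.29, 2.40 and 1.55 CPM in LV-ATF7 (log2 fold change -1.56, standard error 0.30, adjusted p = 0.00201 by edgeR). Of 6 listed genes, which included the ligand gene ADM2, 3 had a row, and RAMP1, RAMP2 and RAMP3 had none. All 3 were called, 2 higher and 1 lower, beside 67.6% of all genes, 34.7% as higher and 32.9% as lower.

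All 8 listed genes of the pyruvate dehydrogenase complex and its phosphatases, the counterpart of the PDK kinases, were tested, and 3 were called by edgeR (37.5%, beside 67.6% of all genes). PDP1, a phosphatase that reactivates the complex, was at 232.5, 183.4 and 180.9 CPM in LV-NC and at 428.1, 406.0 and 360.1 CPM in LV-ATF7 (log2 fold change 1.001, standard error 0.13, adjusted p = 2.40e-04 by edgeR). PDP2 had a log2 fold change of 0.47 (adjusted p = 0.00267) and PDPR, the regulatory subunit of PDP1, one of -0.42 (adjusted p = 0.00484), both under 1.5-fold, by edgeR. Of the PDPR exon bases, 19.6% overlap AC009060.1 on the opposite strand. None of the complex's own subunit genes passed. Without LV-NC replicate 1, 5 of the 8 were called, 2 higher and 3 lower, beside 80.1% of all genes.

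LV-NC replicate 1 was the lowest of the 6 libraries for 3 abundant glycolysis genes, which were chosen after their values were seen. GAPDH was at 756.4, 1834 and 1771 CPM in LV-NC and at 1134, 1174 and 1274 CPM in LV-ATF7, PKM at 1375, 4266 and 4166 CPM and at 2468, 2512 and 2708 CPM, and TPI1 at 271.9, 610.7 and 552.8 CPM and at 341.7, 339.0 and 395.3 CPM. None of these genes was called (adjusted p = 0.419, 0.422 and 0.199 by edgeR), and in each the LV-ATF7 libraries lay between LV-NC replicate 1 and the other LV-NC libraries.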
